A study of Mus musculus with 3 samples.

Results

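The genes described here encode the transferases that join glutathione, a sugar or sulfate to other molecules: the glutathione transferases, the UDP-glycosyltransferases and the cytosolic sulfotransferases. They were chosen by symbol from the genes that the array annotation gives a probeset of their own, as symbols that begin with Gsta, Gstk, Gstm, Gsto, Gstp, Gstt, Gstz, Mgst, Ugt or Sult and a digit. This gave 49 of 19938 genes, made up of 22 glutathione transferases, 11 UDP-glycosyltransferases and 16 sulfotransferases. A gene with more than 1 such probeset was taken at the probeset with the higher mean, which concerned Gstm3 only.

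RNA was measured on 3 arrays of endothelial cells sorted from the kidney cortex of adult mice, 1 kidney to a sample. All 3 samples carried the Tg(TIE2GFP)287Sato transgene, in which the promoter of Tek, the gene of the Tie2 receptor, drives green fluorescent protein. The mice had a mixed background, mainly CD-1, their sex was given as unknown, and no treatment of the animals is named. Medulla was cut away and glomeruli were held back on a 40 µm mesh before sorting, and the 3 samples form 1 group with no control to set them against. The fluorescence marks use of the Tek promoter, and the values describe the whole sorted fraction. Nothing in the labels beyond the kidney used says how far the samples were prepared apart, so each p-value measures the spread between these 3 samples.

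Values are log2 signals, and each gene was set against a signal of 100, the level that the study used as its filter for expressed probesets (6.64 on the log2 scale). A gene is called above or below 100 where limma's one-sided test gave a Benjamini-Hochberg adjusted p under 0.05 over all 35557 probesets, and neither otherwise. Single genes are not ranked by signal, since probes differ in how strongly they bind, and medians over many genes are given as descriptions only. Over the whole table, 40.5% of the probesets had the same value in all 3 samples to 5 decimals. For such a gene the p-value rests on the variance that limma took from other probesets.

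The sorted fraction carried endothelial and tubule transcripts, and markers of smooth muscle, pericytes and fibroblasts were mixed. All 12 endothelial markers, among them Pecam1, Cdh5 and Tek, were above 100. Of 19 proximal tubule markers measured, 13 were above 100, among them Lrp2, Cubn and Slc34a1, and the mean of each of the 19 was over 100. Thick ascending limb markers had 3 of 6 above, 1 below and 2 neither. Distal tubule and collecting duct markers had 3 of 11 above, 4 below and 4 neither. Of 10 smooth muscle, pericyte and fibroblast markers, 2 were above (Rgs5 and Col1a1), 4 were below and 4 were neither. The 4 neither were Acta2, Myh11, Tagln and Pdgfrb, with mean log2 signals of 8.63, 8.46, 7.09 and 6.30. Those below were Cspg4 (5.87), Pdgfra, Dcn and Col1a2. Col1a1 had equal values in the 3 samples. In an alternative fit, which gave probesets without spread the median SD of those with spread, Col1a1 was neither, and Acta2 and Myh11 were above. The 8 leukocyte and 7 hepatocyte markers measured, which include Ptprc and Alb, were all below 100. In a bulk sample, fewer cells of a type and less RNA per cell cannot be told apart. Replicates 1, 2 and 3 had median log2 signals of 5.70, 5.70 and 5.66, and pairs of them correlated at 0.941 to 0.950 over all probesets.

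The 3 families carry out the conjugation reactions of drug and metabolite disposal. Glutathione transferases add the tripeptide glutathione to electrophilic compounds, in the cytosol (alpha, mu, pi, theta, zeta and omega classes), in mitochondria and peroxisomes (kappa) or in membranes (the Mgst genes). UDP-glycosyltransferases move a sugar, most often glucuronic acid, from its UDP carrier to steroids, bilirubin or drugs, and cytosolic sulfotransferases move sulfate from the donor PAPS to phenols, amines and steroids. In kidney these reactions are best known from the proximal tubule, which makes conjugates and secretes them into urine.

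Promoter sequences were examined for motifs of regulators known to act on such genes, and the windows of genes above 100 that hold the first of them are shown. The antioxidant response element, to which the stress factor NRF2 binds, was searched as TGACNNNGC on both strands of the 250 bases before each start site. It was found in 4 of the 57 promoters of 45 genes of these families (7.02%), against 10.2% of 32851 promoters in all. The genes were Gsta3, Gstm5 and Mgst1, which were above 100, and Gstm7, which was below. The windows of the 3 genes above 100 are printed 5′ to 3′ on the plus strand of RefSeq's GRCm38.p6 assembly, with the match in capitals (for Mgst1 the match is on the other strand).
Gsta3 (chr1:21240438-21240498, plus strand): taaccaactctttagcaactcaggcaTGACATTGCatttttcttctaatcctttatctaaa
Gstm5 (chr3:107895786-107895846, plus strand): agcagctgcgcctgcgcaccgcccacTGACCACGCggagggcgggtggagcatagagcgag
Mgst1 (chr6:138140445-138140505, plus strand): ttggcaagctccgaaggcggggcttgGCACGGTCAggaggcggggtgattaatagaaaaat
The matches lie 113 to 121, 34 to 42 and 48 to 56 bases before the start sites of Gsta3, Gstm5 and Mgst1. The dioxin response core GCGTG, bound by the aryl hydrocarbon receptor, was found in 10 of the 57 promoters (17.5%), against 28.2% of all promoters. Its 9 genes comprised 4 above 100 (Gstm1, Gstm5, Gstp1 and Sult1d1), 3 below and 2 neither, and in Gstm5 a match overlaps the TGACNNNGC match. The sites of the hepatocyte nuclear factors HNF1 (by its name) and HNF4 (CAAAGTCCA) had no match in these windows, against 0.0609% and 0.384% of all promoters. A match is a description of letters and not of binding.

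Of the 49 genes, 10 were above 100 (20.4%), against 22.9% of all genes. Below 100 were 31 genes (63.3%), against 65.0% of all genes, and 8 genes were neither. The median of the genes' mean log2 signals was 5.73, against 5.88 over all genes. All 3 samples reached 100 for 14 of the 49 genes, with no test, against 28.0% of all genes. Equal values in the 3 samples were found for 18 of the 49 genes (36.7%), against 51.2% of all genes.

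**Figure D1:**
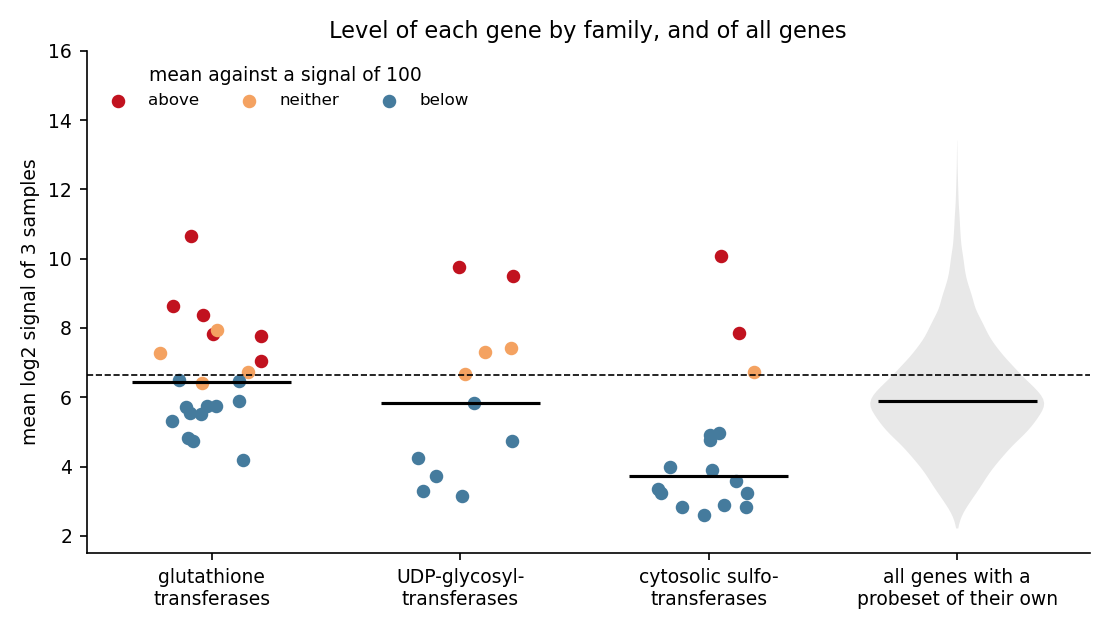
Mean log2 signal over the 3 samples of each of the 49 genes, by family and coloured by call, beside the distribution of all genes. Solid bars are medians and the dashed line is the limit of 100. The 10 genes above 100 lie in all 3 families, 6 among the glutathione transferases and 2 in each of the others.

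Of the 22 glutathione transferase genes, 6 were above 100 (Gsta3, Gstk1, Gstm1, Gstm5, Gstp1 and Mgst1), 12 were below and 4 were neither. The shares above and below were 27.3% and 54.5%, against 22.9% and 65.0% of all genes, a difference that was not tested. The medians of the mean log2 signals were 6.44 for this family, 5.84 for the UDP-glycosyltransferases and 3.74 for the sulfotransferases.

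Among the alpha and kappa classes, Gsta3, whose mouse protein detoxifies the aflatoxin epoxide, had 7.83, 7.82 and 7.82 as its log2 signals. Its mean of 7.82 ± 0.01 (SD, n = 3) was above 100 (limma, adjusted p = 1.91e-05). Gstk1, the kappa-class enzyme of mitochondria and peroxisomes, had 7.03, 7.03 and 7.06, with a mean of 7.04 ± 0.01 (SD, n = 3; limma, adjusted p = 0.000774). In both genes the 3 samples lay within hundredths of each other, all on the same side of the limit. Gsta4, which conjugates the lipid peroxidation product 4-hydroxynonenal, had 6.50, 6.45 and 6.50 and was below 100 at 6.48 ± 0.03 (SD, n = 3; limma, adjusted p = 0.00372). The call was lost (adjusted p = 0.0663) in the alternative fit that gave probesets without spread the median SD of those with spread. In that fit Gsta3 and Gstk1 stayed above 100 with larger values (limma, adjusted p = 0.00114 and 0.0201).

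The mu class, which sits as a run of 7 genes in the genome, had 2 above 100, 4 below and 1 neither. The shares above and below were 28.6% and 57.1%, against 22.9% and 65.0% of all genes. Gstm1, a broad-substrate enzyme known from mouse liver, had log2 signals of 8.54, 8.53 and 8.79, and its mean of 8.62 ± 0.15 was above 100 (SD, n = 3; limma, adjusted p = 0.003). Replicate 3 was the high sample, and without replicate 1 or replicate 2 the adjusted p was 0.0608 and 0.0564. Gstm5 had 7.78 in each sample and was above 100 (limma, adjusted p = 1.68e-06). Gstm3 had 6.71, 6.43 and 7.05, on both sides of the limit, and was neither at 6.73 ± 0.31 (SD, n = 3). Its second probeset had 6.43, 6.53 and 6.53 and was below 100 (limma, adjusted p = 0.0236), so that the probesets of this gene differ in call. In the alternative fit described for Gsta4 both probesets were neither.

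The remaining mu genes were all below 100. Gstm2 had log2 signals of 5.88, 5.56 and 5.84 (mean 5.76 ± 0.18, SD, n = 3), with replicate 2 lowest. Gstm4, Gstm6 and Gstm7 had 4.74, 4.19 and 5.55 in every sample. In the order of the RefSeq gene table the run reads Gstm5, Gstm7, Gstm6, Gstm3, Gstm2, Gstm1 and Gstm4, and the 2 genes above 100 were not neighbours.

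The pi and omega classes held the gene with the widest spread among those above 100. Gstp1, which conjugates electrophiles and also binds the stress kinase JNK, had log2 signals of 11.06, 10.10 and 10.77, with a mean of 10.64 ± 0.49 above 100 (SD, n = 3; limma, adjusted p = 0.00782). Replicate 2 was the low sample, yet each sample lay far above the limit, and without replicate 1 or replicate 3 the adjusted p was 0.0825 and 0.0504. Gstp3 had 5.43, 5.43 and 5.65 and was below 100 at 5.51 ± 0.13 (SD, n = 3; limma, adjusted p = 0.00188). Gsto1, an omega enzyme that reduces dehydroascorbate, had 5.87, 5.53 and 5.87 and was below (adjusted p = 0.00764 by limma, 0.0547 without replicate 1). Gsto2 had 5.30 in every sample and was below as well.

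Of the theta and zeta genes, 3 were below 100 and 2 were neither. Gstt2, whose human counterpart acts on sulfate esters, had log2 signals of 7.78, 7.58 and 8.49 and a mean of 7.95 ± 0.48 (SD, n = 3). All 3 samples were over the limit, but the spread left it neither (limma, adjusted p = 0.0651), and it was above 100 after quantile normalization (0.034) and without replicate 3 (0.0381). Gstt1, an enzyme of small halogenated compounds, had 5.88, 6.48 and 6.85, on both sides of the limit, and was neither at 6.40 ± 0.49 (SD, n = 3). Gstt3 had 6.45, 6.45 and 6.56 and was below (limma, adjusted p = 0.0273), a call lost without replicate 1 or replicate 2 (0.133 in each) and in the alternative fit described for Gsta4 (0.0836). Gstt4 had 5.73 in every sample and was below. Gstz1, the maleylacetoacetate isomerase of tyrosine breakdown, had 6.02, 5.82 and 5.82 and was below at 5.89 ± 0.11 (SD, n = 3; limma, adjusted p = 0.00347).

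Of the 3 membrane-bound genes 1 had each call. Mgst1, a transferase and peroxidase of the endoplasmic reticulum and outer mitochondrial membrane, had log2 signals of 8.15, 8.38 and 8.56 and was above 100 at 8.36 ± 0.20 (SD, n = 3; limma, adjusted p = 0.00735). The 3 samples all lay over the limit, and without replicate 2 the adjusted p was 0.109. Mgst3, which can conjugate leukotriene A4, had 7.74, 7.03 and 7.05 and was neither at 7.27 ± 0.41 (SD, n = 3; limma, adjusted p = 0.184), although it was above without replicate 1 (0.0267). Replicate 1 was its high sample. Mgst2 had 4.81, 4.86 and 4.81 and was below (limma, adjusted p = 3.03e-05).

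**Figure D2:**
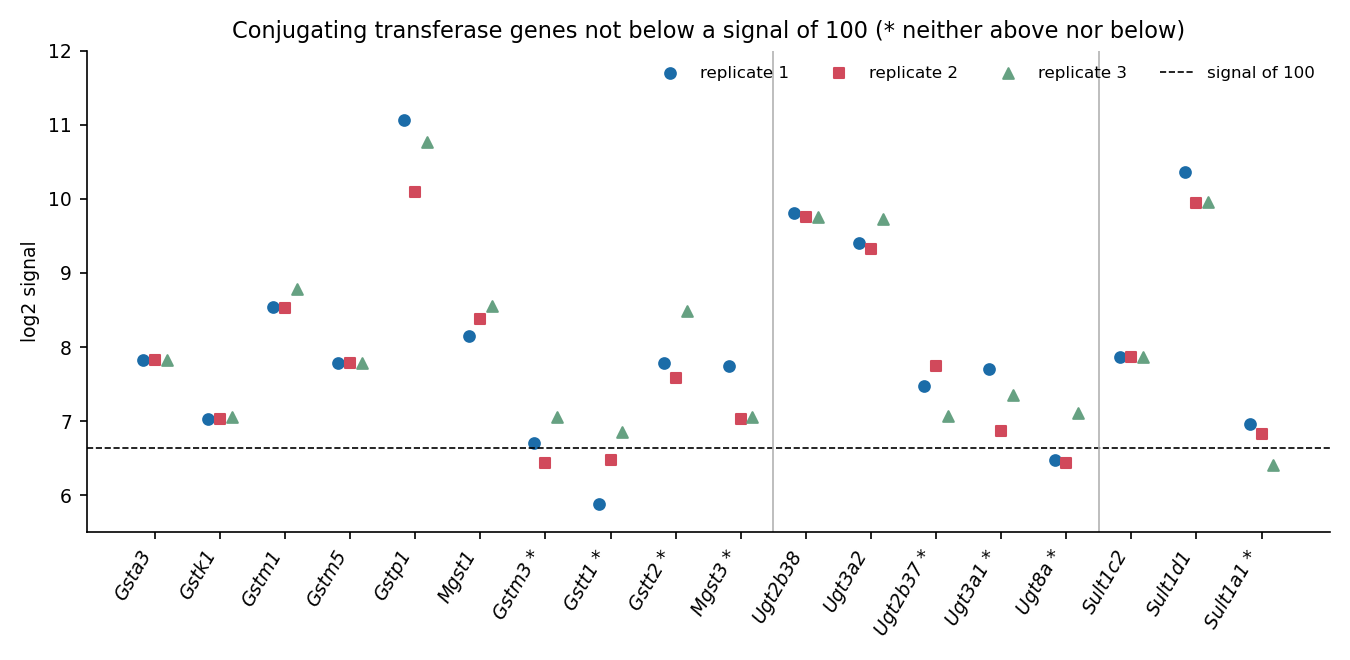
Log2 signal in each of the 3 samples, a marker per replicate, for the 10 genes above 100 and the 8 that were neither (starred), by family, with the limit of 100 as a dashed line. Gstp1 spans 0.95 between its highest and lowest sample, while Gsta3, Gstm5 and Sult1c2 have nearly the same value in all 3.

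The mouse glutathione transferases that the annotation cannot separate were described apart and enter no count. In all, 12 probesets with a gene of these families were annotated to several genes, and 17 of the families' symbols on them had no probeset of their own. Ugt1a8 and Sult2a7 were on no probeset. Of the 12, 4 probesets, annotated to Gsta1, Gsta2, Gm10639 and Gm3776, were all above 100. In 1 of them the log2 signals were 8.80, 8.24 and 9.22 (limma, adjusted p = 0.0269). In each of the 4 replicate 2 was lowest and replicate 3 highest. The 2 probesets of Gstp1 and Gstp2 were above 100 as well, with 8.72, 8.16 and 8.60 in 1 of them (limma, adjusted p = 0.0131) and 8.72, 8.21 and 8.65 in the other (0.0109).

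Of the 11 UDP-glycosyltransferase genes with a probeset of their own, 2 were above 100 (Ugt2b38 and Ugt3a2), 6 were below and 3 were neither. That is 18.2% above and 54.5% below, against 22.9% and 65.0% of all genes. Ugt2b38, of the group that glucuronidates steroids and bile acids in mouse, had log2 signals of 9.81, 9.75 and 9.75. It was above 100 at 9.77 ± 0.03 (SD, n = 3; limma, adjusted p = 5.99e-05), and the 3 samples differed by hundredths. Ugt2b37 had 7.47, 7.75 and 7.07, all over the limit, but was neither at 7.43 ± 0.34 (SD, n = 3; limma, adjusted p = 0.089), and after quantile normalization it was above (0.0384). Ugt2b5 had 5.80, 5.91 and 5.80 and was below at 5.84 ± 0.06 (SD, n = 3; limma, adjusted p = 0.000815).

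These 3 genes, of different calls, have much the same promoter, and their windows are shown for that reason. The 250 bases before the start of Ugt2b38 are 88.8% identical to those of Ugt2b37 and 84.8% identical to those of Ugt2b5, and Ugt2b37 and Ugt2b5 share 79.2%. Each is printed 5′ to 3′ on its own minus strand of GRCm38.p6, from RefSeq, with capitals at bases not identical to an aligned base of the gene named after it. The capitals comprise aligned bases that differ and bases with no aligned partner.
Ugt2b38 against Ugt2b37 (chr5:87424204-87424453, minus strand): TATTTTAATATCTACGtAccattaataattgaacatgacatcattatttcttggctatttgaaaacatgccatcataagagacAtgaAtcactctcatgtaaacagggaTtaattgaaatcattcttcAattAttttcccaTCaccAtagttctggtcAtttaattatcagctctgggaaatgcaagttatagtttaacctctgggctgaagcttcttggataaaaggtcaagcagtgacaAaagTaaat
Ugt2b37 against Ugt2b38 (chr5:87254789-87255038, minus strand): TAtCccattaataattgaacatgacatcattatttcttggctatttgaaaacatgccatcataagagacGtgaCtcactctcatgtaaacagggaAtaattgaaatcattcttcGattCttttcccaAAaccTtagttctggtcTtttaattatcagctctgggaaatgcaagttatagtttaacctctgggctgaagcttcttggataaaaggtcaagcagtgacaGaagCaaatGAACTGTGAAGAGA
Ugt2b5 against Ugt2b38 (chr5:87140341-87140590, minus strand): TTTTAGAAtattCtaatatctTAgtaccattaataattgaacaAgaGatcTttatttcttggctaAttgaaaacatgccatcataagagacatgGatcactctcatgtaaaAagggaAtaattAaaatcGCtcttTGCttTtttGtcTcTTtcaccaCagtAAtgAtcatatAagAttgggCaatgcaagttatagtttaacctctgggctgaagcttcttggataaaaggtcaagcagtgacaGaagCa
Of 236 bases aligned between Ugt2b38 and Ugt2b37, 14 differ, and of 240 aligned between Ugt2b38 and Ugt2b5, 28 differ. Closely related genes can share probe sequence, so their separate signals are uncertain.

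The remaining Ugt2 genes with a probeset of their own were all below 100. Ugt2b34 and Ugt2b36 had log2 signals of 4.74 and 4.25 in every sample, and Ugt2a3 had 3.74 in every sample. Ugt2b1 had 3.22, 3.22 and 3.39 (limma, adjusted p = 0.000111), and Ugt2b35 had 3.14, 3.14 and 3.20. Of the run of 13 genes from Ugt2b34 to Sult1e1 in the RefSeq table, 11 have a probeset of their own, of which 2 were above 100 (Ugt2b38 and Sult1d1), 1 was neither and 8 were below. The probeset shared by Ugt2a1 and Ugt2a2 had 3.14 in every sample and was below too.

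**Figure D3:**
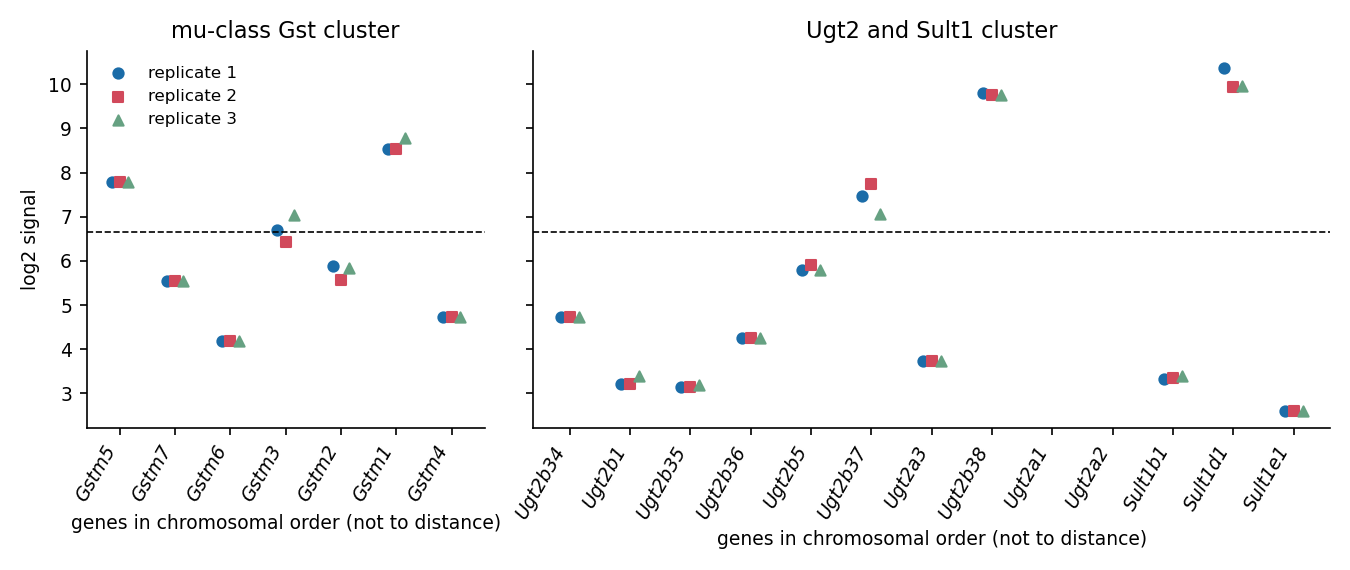
Log2 signal of the genes of 2 clusters in the order of the RefSeq gene table, with a marker for each of the 3 samples and the limit of 100 as a dashed line; genes without a probeset of their own are empty. In the run from Gstm5 to Gstm4, Gstm5 and Gstm1 lie above the limit, and in the run from Ugt2b34 to Sult1e1, Ugt2b38 and Sult1d1 do.

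Outside the Ugt2 group, 1 gene was above 100 and 2 were neither. Ugt3a2, whose human counterpart uses UDP-glucose and UDP-xylose, had log2 signals of 9.41, 9.32 and 9.73 and was above 100 at 9.49 ± 0.21 (SD, n = 3; limma, adjusted p = 0.00302). Replicate 3 was high, and without replicate 1 the adjusted p was 0.0659. Ugt3a1, the neighbour of Ugt3a2, had 7.71, 6.87 and 7.35 and was neither at 7.31 ± 0.43 (SD, n = 3; limma, adjusted p = 0.181). All 3 samples were over the limit and replicate 2 was lowest. The 2 probesets shared by Ugt3a1 and Ugt3a2 were above 100 (limma, adjusted p = 0.00272 and 0.00338). Ugt8a, which makes galactosylceramide for myelin, had 6.48, 6.43 and 7.11 and was neither (6.67 ± 0.38, SD, n = 3), with samples on both sides of the limit. The Ugt1a genes other than Ugt1a8 share a probeset, which had 7.08, 6.73 and 7.08 and was neither (limma, adjusted p = 0.178).

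Of the 16 cytosolic sulfotransferase genes, 2 were above 100 (Sult1c2 and Sult1d1), 13 were below and 1 was neither. Hence 12.5% were above and 81.2% below, against 22.9% and 65.0% of all genes, which was not tested. Sult1d1, which sulfates catecholamines in mouse, had log2 signals of 10.37, 9.94 and 9.96 and was above 100 at 10.09 ± 0.24 (SD, n = 3; limma, adjusted p = 0.00271). Replicate 1 was the high sample, and without replicate 2 the adjusted p was 0.0536. Sult1c2 had 7.86 in every sample (limma, adjusted p = 1.68e-06). Its neighbour Sult1c1 had 3.90 in every sample and was below. Sult1a1, the phenol sulfotransferase, had 6.96, 6.82 and 6.41, on both sides of the limit, and was neither at 6.73 ± 0.29 (SD, n = 3).

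Below 100 lay the hydroxysteroid and estrogen enzymes and the Sult3 to Sult6 genes. Sult1e1, which inactivates estrogens, had a log2 signal of 2.61 in every sample. Sult2a3, Sult2a6 and Sult2a8, of the group that sulfates bile acids and hydroxysteroids, had 3.23, 2.89 and 3.23 in every sample, and Sult2b1, which sulfates cholesterol, had 4.96. Sult3a1 had 2.81, 2.86 and 2.81 and Sult3a2 had 2.82 in every sample. Sult4a1, known from brain, had 4.92 in every sample, and Sult5a1 had 4.76, 4.76 and 4.74. Sult6b2 had 3.82, 3.82 and 4.32 and was below (3.99 ± 0.29, SD, n = 3; limma, adjusted p = 0.00179), with replicate 3 high, and Sult1b1 and Sult6b1 were below with means of 3.36 and 3.58. The 2 probesets shared by Sult2a genes were below as well.

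A mean of 100 or more was reached by 17 of the 49 genes, and their values differed among the samples. The log2 span from the lowest to the highest sample had a median of 0.43 over these 17 genes, against 0.18 over the 6127 such genes of the array, a difference that was not tested. Of the 17, 10 were lowest in replicate 2 alone, 2 in replicate 3 alone and 1 in replicate 1 alone, and 2 had equal values. For the 6127 genes these numbers were 1169 for replicate 2, 1525 for replicate 3 and 771 for replicate 1, and 1684 had equal values. Genes with equal values have no span, and they made up 11.8% of the 17 and 27.5% of the 6127, so the median spans also reflect these shares. The log2 deviation of replicate 2 from the gene's mean had a median of -0.092 over the 17, against 0.000 over all. Replicate 2 was also lowest alone for 12 of the 19 proximal tubule markers and for 4 of the 4 thick ascending limb markers with a mean of 100 or more, and for 3 of the 12 endothelial markers. The summed signals of the proximal tubule markers were 19723, 16906 and 17176 in replicates 1, 2 and 3, those of the thick ascending limb markers were 3801, 2203 and 3570, and those of the endothelial markers were 12416, 12910 and 10538. The summed signals of the distal tubule and collecting duct markers were 2278, 1672 and 3437. Of the 6 of these markers with a mean of 100 or more, 5 were lowest in replicate 2 alone and 5 highest in replicate 3 alone. The summed signals of the smooth muscle, pericyte and fibroblast markers were 1828, 1848 and 3692, also highest in replicate 3. Of the 17 transferase genes, 7 were highest in replicate 3 alone, 7 in replicate 1 alone and 1 in replicate 2 alone. The part of RNA from tubule or smooth muscle in the values of the transferase genes was not tested.

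**Figure D4:**
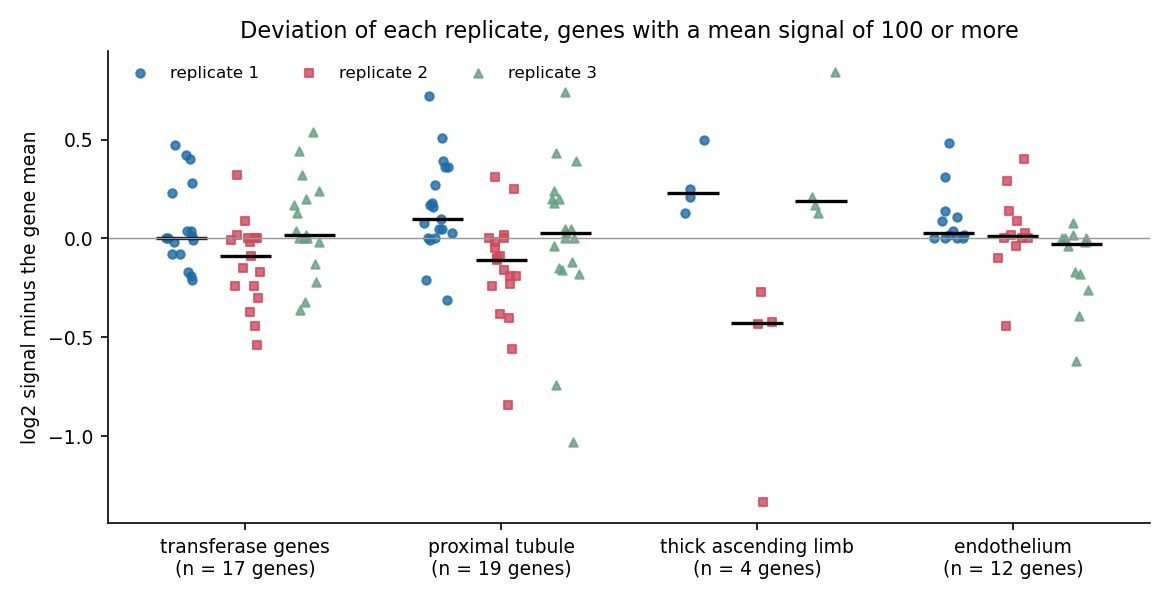
Log2 signal of each gene minus its mean over the 3 samples, for the transferase genes, proximal tubule, thick ascending limb and endothelial markers with a mean of 100 or more, with a point per gene, a colour and marker per replicate and a bar at the median. Replicate 2 has a median deviation of -0.09 in the transferase genes and -0.12 in the proximal tubule markers, against 0.01 in the endothelial markers.

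Of the 49 genes, 6 are on the study's list of cortical genes: Gsta3, Sult1c2, Sult1d1, Ugt2b38, Ugt3a1 and Ugt3a2. The study chose that list on samples that include these, so that the list is no independent evidence. The paper read the list as mainly of proximal tubule character and ascribed it to a slight contamination of the sorted cells. Of these 6, 5 were above 100. The study's screens dropped probesets that did not reach a raw level of 100 in 3 samples, so such calls were largely set by the choice of the list. Of the 43 others, 5 were above as well: Gstk1, Gstm1, Gstm5, Gstp1 and Mgst1.

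Genes of donor supply and turnover, related or other conjugating enzymes, carriers and regulators were described through 9 lists. Of the 100 genes measured in these lists, 39 were above 100, against 22.9% of all genes. The lists were made by hand with earlier results of these data known, so this difference was not tested and is no result about the genes. The counts of each list below are descriptions to be read beside that share and the 65.0% of all genes below 100. Of these 100 genes, 7 are on the same cortical list of the study, all of them above 100, which the study's own filter at 100 made likely. Glutathione supply and turnover had 9 of 14 genes above, 2 below (Ggt5 and Chac1) and 3 neither. Chac1, and Anpep among those above, were neither in the alternative fit described for Gsta4, which left 8 above. Gpx3, the plasma glutathione peroxidase, had log2 signals of 12.53, 12.18 and 12.58 and Gpx1, the cytosolic one, had 11.38, 11.02 and 11.12 (limma, adjusted p = 0.000812 and 0.000927). Gclm and Gclc encode the subunits of the enzyme that limits glutathione synthesis, and they differed in call. Gclm had 7.70, 7.68 and 7.68 and was above, and Gclc had 8.80, 8.02 and 7.00 and was neither (limma, adjusted p = 0.208).

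Of 7 genes of glucuronide donor supply and cleavage, 5 were above 100 and 2 were neither (Slc35d2 and Uxs1). Ugp2 and Ugdh, which make UDP-glucose and then UDP-glucuronate, had mean log2 signals of 8.28 and 6.85. In that alternative fit Ugdh and Slc35d1 were neither and Uxs1 was above, which left 4 of the 7 above. Of 10 genes of sulfate donor supply and sulfatases, 3 were above (Papss1, Papss2 and Slc13a1), Arsa was below and 6 were neither. Papss1 and Papss2, the synthases of PAPS, had 7.63, 7.38 and 7.18 and 7.56, 7.42 and 7.42 (limma, adjusted p = 0.0441 and 0.00507). Slc13a1, the sodium-sulfate cotransporter of the proximal tubule, had 8.54, 8.54 and 9.28 (limma, adjusted p = 0.0202). Golgi sulfotransferases, which act on glycans and proteins, had 2 of 13 above (Tpst1 and Tpst2), 7 below and 4 neither. Tpst1 and Tpst2 had equal values in the 3 samples, with means of 7.05 and 6.68, and both were neither in the alternative fit.

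Of the genes that act beside the 3 families, 3 of 10 glutathione transferase-like and MAPEG genes were above (Clic1, Clic4 and Clic5) and 7 were below, among them Hpgds and Ltc4s. Other conjugating and hydrolysing enzymes had 7 of 14 above, among them Keg1 and Acsm2 with mean log2 signals of 11.52 and 9.47, 4 below and 3 neither. Conjugate carriers had 4 of 12 above, 6 below and 2 neither. Abcg2, an efflux pump for sulfate conjugates, had 9.83, 10.23 and 9.79, with replicate 2 highest. The organic anion uptake carriers Slc22a6 and Slc22a8 of the proximal tubule were above 100 too, at means of 7.89 and 8.65, and the prostaglandin carrier Slco2a1 at 9.44.

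Calls of the regulators of these genes are likewise to be read beside the 22.9% of all genes above 100 and the 65.0% below. Of 10 NRF2 pathway genes, 4 were above (Nfe2l2, Mafg, Srxn1 and Cat), 4 were below (Keap1, Nqo1, Txnrd1 and Slc7a11) and 2 were neither. Srxn1 and Txnrd1, with 6.74 and 6.56 in every sample, were both neither in the alternative fit described for Gsta4. Nfe2l2, which encodes NRF2, had log2 signals of 9.08, 9.93 and 9.03, while its target Nqo1 had 4.99, 5.18 and 4.99, and replicate 2 was highest in both. Of 10 xenobiotic and tubule transcription factors, 2 were above, 5 were below and 3 were neither. Those above were Ahr, the aryl hydrocarbon receptor, with 7.92 in every sample, and Nr1h4, the bile acid receptor, with 7.64. Hnf4a, the nuclear receptor of proximal tubule cells, had 7.62, 7.19 and 7.23 and was neither (limma, adjusted p = 0.0567), but above in that alternative fit.

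**Figure D5:**
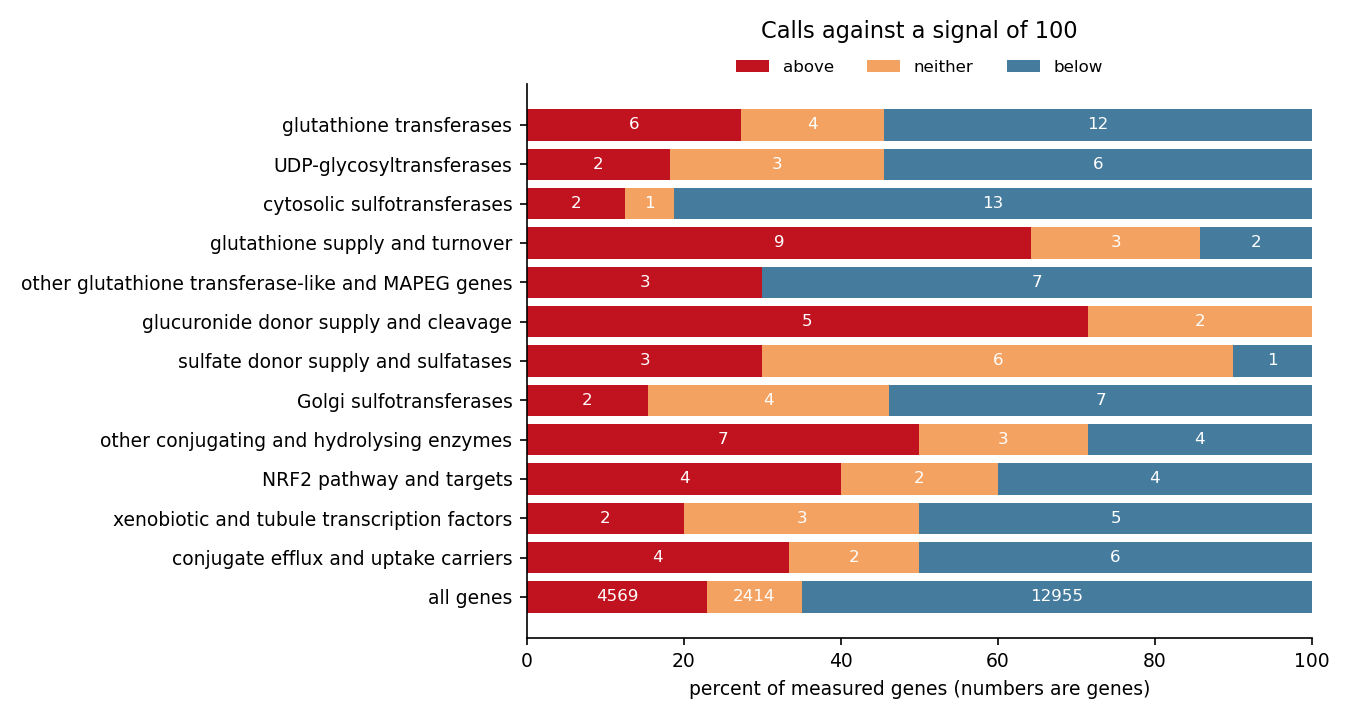
Percent of the measured genes that were above 100, neither or below 100, with the number of genes in each bar, for the 3 transferase families, the 9 lists and all genes. The glutathione transferases have 6 of 22 above, and glutathione supply and turnover 9 of 14, against 22.9% of all genes.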

How the data were processed

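Total RNA of 3 samples was amplified in 1 round and hybridised to 1-colour Affymetrix arrays. The authors deposited log2 signals, normalized by RMA in GeneSpring per the paper and by Affymetrix Expression Console per the submitters' processing notes. The version of Expression Console, and which arrays were normalized with these, are not given there. No further transformation was applied. Of 35557 probesets, 21789 were of 1 gene, and all 50 probesets of the transferase genes matched RefSeq symbols. Each probeset was fitted with limma 3.58.1 (R 4.3.3) as an intercept model against a signal of 100, with a variance trend. Residual and prior degrees of freedom were 2 and 0.297. In simulated data, 49 of 50 probesets set 1 log2 unit above the limit were called above. Of 200 set at the limit, 3 were called above and 11 below. Probesets with equal values or a wide spread were not among those set away from the limit, so their calls were not tested in this way. Arrays give no counts, so their number, 3, limits precision. The genes and lists were chosen with earlier results of these data known. Values are given per sample for every gene above 100 or neither, and for those below with the 3 highest and 3 lowest means of a family or values spanning over 0.5, with others added in brief. Promoters came from a RefSeq table of GRCm38.p6, and 45 of 49 genes matched. Alternatives were limits of 50 and 200, no test, other normalization, variance, adjustment and probeset rules, a filter on dim probesets, and each sample left out.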

Additional observations from a re-analysis of the deposited data

How the results depend on the processing

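Of the 49 genes, the 10 above 100 became 21 with a limit of 50 and 8 with a limit of 200. For all genes the share above moved as well, to 51.3% and 9.37%. The 31 genes below became 10 when probesets with a mean log2 signal under 5 were left out, since fewer genes were then tested. With a limit of 50 the glutathione transferases above the limit became 12 and the UDP-glycosyltransferases 6, and 4 of the UDP-glycosyltransferases reached 100 in every sample with no test. The genes of the 9 lists above the limit, 39 at a limit of 100, became 71 at 50 and 18 at 200. With a limit of 50, Gsta4 (mean log2 signal 6.48), Gstt3 (6.49), Gstt4 (5.73) and Ugt2b5 (5.84) lay above it, and with a limit of 200 Gstk1 (7.04) lay below it. Leaving out each sample in turn gave 7 to 10 genes above, 29 to 32 below, 4 to 6 glutathione transferases, 1 to 2 UDP-glycosyltransferases, 1 to 2 sulfotransferases and 29 to 37 list genes above, a median level of 5.70 to 5.73 and a median span of 0.00 to 0.03 (0.06 with all 3). The share of all genes above 100 fell too, from 22.9% to 16.7%, 17.1% and 21.9% without replicates 1, 2 and 3. Gstm1, Gstp1 and Ugt3a2 lost their call without replicate 1, Gstm1, Mgst1 and Sult1d1 without replicate 2, and Gstp1 without replicate 3. With a limit of 200 Gstk1 and Mgst1 lost it. The other alternatives kept all 10 genes above 100, and Gstt2 and Ugt2b37 joined them under quantile normalization, the median shift and the alternative variance. No paired analysis was possible because there is 1 group. The number of arrays, 3, limits how close to 100 a mean with spread can be called.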

Other observations

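The sex of the mice is given as unknown, and 4 sex-linked genes were measured. Xist, the RNA of the inactive X chromosome, had a log2 signal of 4.92 in every sample and was below 100. Of the Y-linked genes, Eif2s3y had 7.52, 7.64 and 7.52 in replicates 1, 2 and 3 and was above 100 (limma, adjusted p = 0.00269), Kdm5d had 6.23 in every sample and was below, and Uty had 6.21, 7.08 and 5.82 and was neither.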
